A study of Mus musculus with 6 samples.

Results

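The genes described are 37 listed genes of DNA repair, chosen by name from the routes of direct reversal, base excision, nucleotide excision, mismatch and double-strand break repair, with 1 polymerase that copies past damage. They were read in whole-liver RNA of mice that had received an alkylating carcinogen, and ErbB4-/- mice were compared with controls. Of the 37 genes, 34 have a value here, among 22180 genes in all. Mpg, Apex1 and Ddb2 are left out, because each is read only by a probe set that the annotation assigns to several genes. Each gene is represented by its probe set with 1 gene symbol and the highest mean over the 6 arrays.

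Livers of 3 wild-type C57BL/6J controls and of 3 ErbB4-/- mice were hybridised, 1 whole-transcript array with a single colour per mouse. ErbB4, a relative of the epidermal growth factor receptor, is a kinase at the cell surface that neuregulins activate. Per the labels, the mutant mice lack ErbB4 in the whole body, carry a transgene that supplies it in the heart so that embryos survive, and were backcrossed to C57BL/6J. All 6 mice were given 1 injection of DEN, the abbreviation in this field for diethylnitrosamine, at postnatal day 14. They were dissected 32 weeks later per the treatment protocol, whereas another label field has 32 to 34 weeks for the controls and 35 to 37 weeks for the ErbB4-/- mice, 1 week more from each array to the next. If that field is right, the groups also differ in age. No mouse without DEN was used here, so the response to the carcinogen itself cannot be read from these arrays. Effects of the missing receptor, of the heart transgene and of other features of this line cannot be told apart.

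DEN is activated in hepatocytes to a species that places ethyl groups on DNA bases. Ethylated guanine can be repaired directly, by transfer of the group to a protein, and other damaged bases are cut out by glycosylases or excised within a stretch of the strand. Mismatch repair acts on mispaired bases after replication, and breaks are joined end to end or copied from the sister chromatid. In the injected infant mouse, lesions that escape these routes before hepatocytes divide are the source of the mutations that later tumours carry.

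Base composition and motifs of the promoters are a property that the choice by name did not use. RefSeq promoter windows of GRCm38.p6, each with 250 bases before and 50 after a transcription start, were listed for 30 of the 34 genes, 35 windows in all. Their median GC content was 58.3%, against 52.7% over 32851 windows of every gene in the table, and their median number of CG dinucleotides was 21 against 7. The windows varied widely, from 43.7% to 71.7% GC and from 2 to 37 CG dinucleotides, with the lowest values at the second window of Mutyh. The GC box GGGCGG, the letters bound by Sp1, stood on either strand of 20 windows (57.1%, against 35.7% of all windows). CCAAT was found on either strand of 45.7% of the windows, against 37.4% of all, and TATAAA in 8.57% against 13.6%. The letters TTTCCCGC, an E2F-type motif, were in 4 windows (11.4%, against 1.07% of all), those of Msh6, Chek2, Brca2 and Xrcc6. These letters can share bases with a GC box and did so in 84 of the 351 windows of all genes that hold them, but in 0 of these 4. Also searched were TTTGGCGC, found in 1 window, that of Msh3 (2.86%, against 0.514% of all), and TGACGTCA. The latter was in 1 window as well, that of Brca2 (2.86%, against 1.79% of all). The motifs are matches of letters in a window and were not tested as binding sites. The 250 bases before the start are shown for Mgmt, the direct reversal enzyme of alkylated guanine, for Neil1, whose mean differed most between the groups, and for Parp1, whose unadjusted p was the smallest of the members. Capitals mark GC boxes in either orientation.
Mgmt (chr7:136894336-136894585, plus strand): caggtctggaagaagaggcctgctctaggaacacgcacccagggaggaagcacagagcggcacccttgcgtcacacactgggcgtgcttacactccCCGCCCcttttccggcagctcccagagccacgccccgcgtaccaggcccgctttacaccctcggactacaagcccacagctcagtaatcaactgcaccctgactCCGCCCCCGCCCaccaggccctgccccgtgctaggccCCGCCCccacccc
Neil1 (chr9:57148306-57148555, minus strand): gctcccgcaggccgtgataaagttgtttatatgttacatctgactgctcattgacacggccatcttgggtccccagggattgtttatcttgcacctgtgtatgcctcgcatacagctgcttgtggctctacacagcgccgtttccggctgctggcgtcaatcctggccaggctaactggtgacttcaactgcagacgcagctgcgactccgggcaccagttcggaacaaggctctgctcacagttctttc
Parp1 (chr1:180568641-180568890, plus strand): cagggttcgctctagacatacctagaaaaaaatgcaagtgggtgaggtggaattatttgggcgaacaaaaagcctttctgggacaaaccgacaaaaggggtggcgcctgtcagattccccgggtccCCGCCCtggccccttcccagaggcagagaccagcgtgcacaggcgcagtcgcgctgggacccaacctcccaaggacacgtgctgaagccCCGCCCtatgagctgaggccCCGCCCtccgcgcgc
The stretch before Mgmt, the first of 2 starts listed for it, held 4 GC boxes, that before Parp1 held 3 and that before Neil1 held 0. GC content was 67.2% for this start of Mgmt, 61.6% for Parp1 and 54.8% for Neil1. The 250 bases before the second start of Mgmt held 0 GC boxes and had 51.6% GC. Which start is used in liver was not examined.

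The deposited values are taken as log2 intensities, so a difference of 1 is read as a doubling, and levels are compared between arrays but not between genes. Differences are ErbB4-/- minus control, with the standard error of limma, and a gene was called where its adjusted p was under 0.05. Array medians lay between 4.83 and 4.86. Erbb4 itself measured 5.42, 5.73 and 5.42 in control and 4.75, 5.36 and 5.61 in ErbB4-/- liver, overlapping groups that do not check the labels, and the part of the gene the probe set reads was not examined. Control replicate 1 stood apart in liver genes that differ by sex. Its mean over 10 male-biased genes was 7.60, against 10.85 to 11.18 on the other arrays, and its mean over 8 female-biased genes was 8.33, against 6.19 to 6.68. ErbB4-/- replicate 3 was lowest of the arrays in macrophage, endothelial and stellate cell markers.

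The comparison asks whether transcripts of the repair machinery differ between ErbB4-/- and control livers in which tumours can form after DEN. The livers were taken 32 weeks or more after the injection, so levels at the time of the first lesions were not measured. The share of tumour tissue in each sample was not examined. Repair genes measured nearly alike in both groups. Differences among the 34 genes lay between -0.15, for the translesion polymerase gene Polk, and 0.19, for the glycosylase gene Neil1, with a median of 0.03 against 0.01 over all genes. The median size of the difference, regardless of sign, was 0.045 for the members and 0.089 for all genes. No member was called (limma, 0 of 34, with 0.00451% of all genes called, which is 1 gene), and 0 of 34 had an unadjusted p under 0.05, against 5.72% of all genes. Adjusted p of the members lay between 0.760 and 1. In none of the 34 did the groups separate without overlap, against 8.33% of all genes. A value shared by arrays of both groups counts as overlap here, which was the case for 18 of the 34 genes (52.9%, against 45.3% of all genes).

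The precision allows a bound on what may have been missed. The 95% interval of the difference, taken gene by gene, lay within 0.58 of 0, which is a 1.5-fold change, for 34 of 34 members, against 81.3% of all genes. The widest reach was that of Lig1, up to 0.55 or 1.46-fold, followed by Neil1 with 0.53 or 1.45-fold. Standard errors ran from 0.042 to 0.191, with a median of 0.075 against 0.10 for all genes. Leaving out 1 array left 29 to 33 of the 34 intervals within that bound, and those that passed it were among Lig1, Neil1, Ercc5, Polb, Msh6 and Msh3. The number was 33 with array weights and 32 with the replicate block, with Lig1, or Neil1 and Lig1, outside. With weeks as a covariate, which removes most of the contrast between the groups, 17 of 34 intervals stayed within it, against 35.1% of all genes.

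Direct reversal was read by 3 genes, whose differences lay between -0.01 and 0.04. Mgmt, which encodes the methyltransferase that takes alkyl groups off guanine and is used up in doing so, had values of 8.05, 8.15 and 7.75 on ErbB4-/- arrays 1 to 3 and of 7.99 on each control array. The 3 controls carry the identical value, and the ErbB4-/- arrays lie on both sides of it. Between the groups this came to -0.002 (standard error 0.11) with an interval of -0.27 to 0.27 (limma, adjusted p = 1). Without ErbB4-/- replicate 3, the lowest array, the difference of Mgmt was 0.11 and still not called. Alkbh2 and Alkbh3, oxidative demethylases of alkylated bases in DNA, differed by -0.01 and 0.04 with standard errors of 0.07 and 0.05. The values of Alkbh3 were 6.90, 6.93 and 6.96 in control and 7.005, 6.95 and 6.95 in ErbB4-/- liver, a spread of about 0.03 within each group.

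Glycosylases, which open base excision by cutting the damaged base from its sugar, had differences between -0.004 and 0.19 over 5 genes, with 4 above 0. Such counts are to be read against 54.6% of all genes above 0. Neil1, a glycosylase for oxidised pyrimidines, measured 6.23, 6.53 and 6.38 in control and 6.83, 6.45 and 6.45 in ErbB4-/- liver. ErbB4-/- replicate 1 is the high array, and the other two lie among the controls. The difference of 0.19 had a standard error of 0.14 (limma, adjusted p = 0.760) and became 0.07 without ErbB4-/- replicate 1. Ogg1, which removes oxidised guanine, measured 5.57 on 5 arrays and 5.75 on ErbB4-/- replicate 2. Ung, the uracil glycosylase, had a wider spread, from 4.95 to 5.34 in control and from 5.01 to 5.36 in ErbB4-/- liver, and a difference of 0.02. Mutyh, which acts on adenine opposite oxidised guanine, differed by -0.004 and Nthl1, a glycosylase for oxidised pyrimidines, by 0.05.

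The later steps of base excision and single-strand break repair were read by 5 genes, all with a difference above 0, from 0.001 to 0.17. Without control replicate 1, ErbB4-/- replicate 1 or ErbB4-/- replicate 2, 3 of them were above 0 and 2 below. Parp1 encodes the polymerase that marks broken strands with poly(ADP-ribose). It measured 8.16, 8.29 and 8.08 in control and 8.36, 8.42 and 8.27 in ErbB4-/- liver, so that ErbB4-/- replicates 1 and 2 were above all controls and replicate 3 was just under control replicate 2. The means were 8.18 ± 0.10 and 8.35 ± 0.07 (SD, n = 3 each), and the difference of 0.17 had a standard error of 0.07, an interval of -0.01 to 0.36 and an adjusted p of 0.760 in limma. Over the alternatives for Parp1 the difference ranged from 0.12, without control replicate 3, to 0.30, with weeks as a covariate. The unadjusted p of Parp1 was under 0.05 without control replicate 2, without ErbB4-/- replicate 3, with array weights and with the replicate block, and Parp1 was called under none of them.

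Polb encodes the polymerase that fills the gap after base excision, and Lig1 and Lig3 encode the ligases that close it. Polb measured 6.47, 7.08 and 6.91 in control and 6.86, 6.88 and 6.72 in ErbB4-/- liver. Control replicate 1 is the low array, and the difference of 0.001 became -0.18 without it. Lig1 measured 5.28, 5.20 and 4.59 in control and 5.04, 5.12 and 5.12 in ErbB4-/- liver, with a difference of 0.07. Here control replicate 3 is the low array, and the difference of Lig1 was -0.15 without it and 0.20 without control replicate 1. Lig3 differed by 0.11, and Xrcc1, the scaffold on which Lig3 and Polb assemble, by 0.02.

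Nucleotide excision repair, which cuts out a stretch of strand around bulky lesions, was read by 8 genes with a median difference of 0.05. Of these, 6 were above 0, Xpa was below 0 and Ercc1 was equal in both groups. Among the factors that find lesions, Xpc measured 6.94, 6.70 and 6.94 in control and 6.87, 6.95 and 6.94 in ErbB4-/- liver. Ddb1, part of the complex that senses damage in chromatin, differed by 0.02 with a standard error of 0.06. Xpa, which checks the lesion within the opened strand, measured 7.23, 7.06 and 7.12 in control and 7.11, 7.07 and 6.90 in ErbB4-/- liver. Its difference of -0.11 was -0.04 without ErbB4-/- replicate 3, the lowest array.

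The helicases Ercc2 and Ercc3, subunits of the factor TFIIH that opens the strands, differed by 0.04 and 0.07. The nuclease genes followed the same pattern of small differences. Ercc4, which with Ercc1 cuts on the near side of the lesion, differed by 0.05, and Ercc1 itself has the value 5.71 on all 6 arrays. Ercc5, the nuclease on the other side, measured 6.73, 6.84 and 6.91 in control and 6.81, 6.86 and 7.27 in ErbB4-/- liver. ErbB4-/- replicate 3 alone is high, and the difference of Ercc5 went from 0.15 to 0.01 without it.

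Mismatch repair was read by Msh3 and Msh6, which recognise loops and mispairs, and by Pms2, a subunit of the nuclease complex that follows. Msh3 had the second smallest unadjusted p of the members. It measured 6.96, 6.73 and 7.19 in control and 7.12, 7.15 and 7.14 in ErbB4-/- liver, so the ErbB4-/- arrays lie close together inside the range of the controls. The difference of Msh3 came to 0.18 (standard error 0.12, adjusted p in limma 0.760). It was 0.29 without control replicate 3 and 0.06 without control replicate 2. Msh6 measured 5.28, 5.71 and 5.84 in control and 5.65, 5.71 and 5.71 in ErbB4-/- liver. Its difference of 0.08 was -0.09 without control replicate 1, the low array. Pms2 has the value 4.63 on all 6 arrays.

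Damage signalling kinases differed by -0.04 to 0.04. Atm and Atr, which respond to breaks and to stalled forks, differed by -0.01 and -0.04. Atr was also read by a dimmer probe set, at 4.13, 4.13 and 4.06 in control and 4.13, 4.44 and 4.35 in ErbB4-/- liver. That difference was 0.20, with 0.10 as its standard error, in the opposite direction, so the probe sets of this gene disagree in sign. Chek1 and Chek2, the checkpoint kinases they activate, differed by 0.01 and 0.04. Chek2 measured 4.99, 5.43 and 5.28 in control and 5.28 on every ErbB4-/- array, and without control replicate 1 its difference was -0.08.

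Genes of double-strand break repair had differences between -0.08 and 0.10. Brca1 and Brca2, which act in homologous recombination, differed by -0.08 and 0.03 with standard errors of 0.07 and 0.10. Brca1 measured 4.36, 4.26 and 4.26 in control and 4.19, 4.32 and 4.12 in ErbB4-/- liver. The Ku subunits that bind broken ends, Xrcc5 and Xrcc6, went in opposite directions by -0.05 and 0.10, and neither was called (limma, adjusted p = 0.775 and 0.760). Xrcc6 measured 5.76, 5.84 and 5.82 in control and 6.02, 5.85 and 5.83 in ErbB4-/- liver, with ErbB4-/- replicate 1 as the high array. Prkdc, the kinase that Ku recruits, has the same value of 6.34 on 5 arrays and 6.35 on the sixth.

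Polk, a translesion polymerase that copies past bulky adducts, had the lowest difference of the members. It measured 5.75, 5.91 and 5.75 in control and 5.75, 5.75 and 5.45 in ErbB4-/- liver, and 4 of these 6 values are identical. The difference of -0.15 had a standard error of 0.10 (limma, adjusted p = 0.760) and was -0.06 without ErbB4-/- replicate 3.

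**Figure D1:**
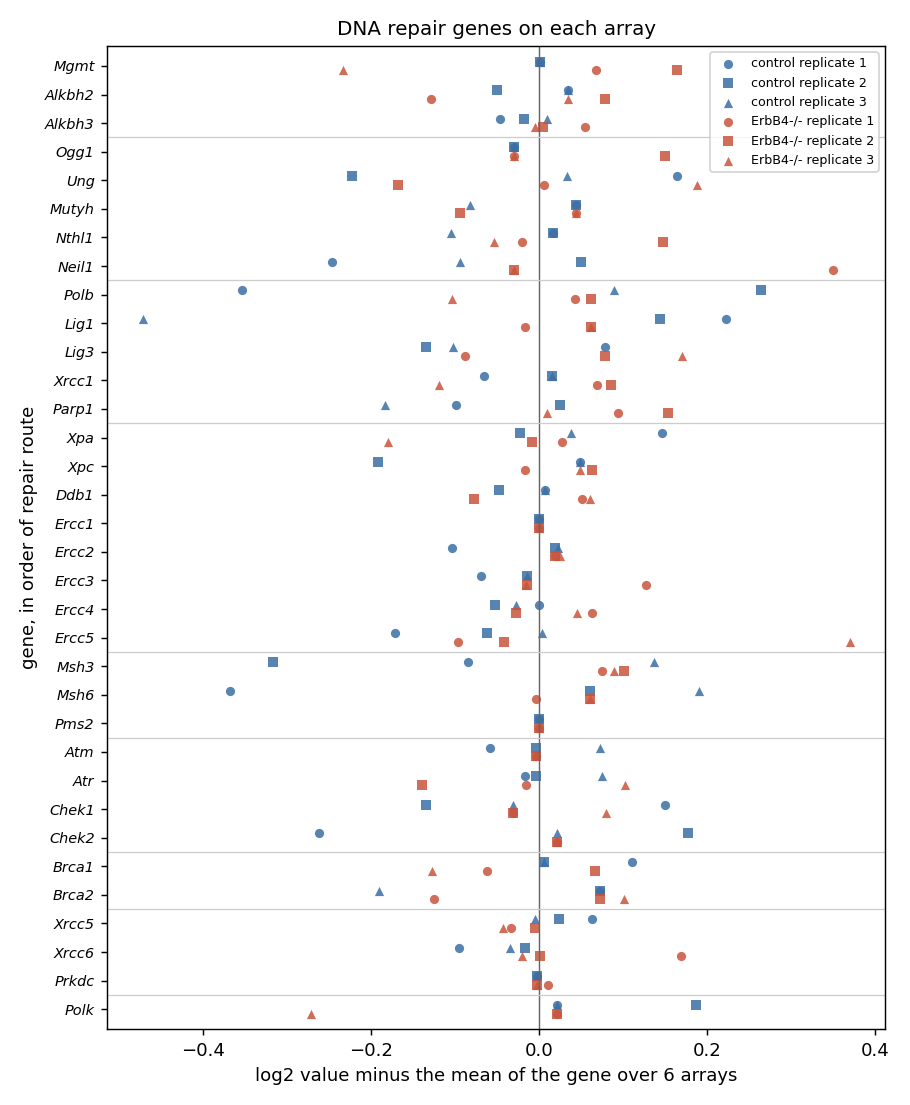
Log2 value of each repair gene on each array minus the mean of that gene over the 6 arrays (horizontal axis), with controls in blue above ErbB4-/- arrays in red on each line and the marker shape giving the replicate. Groups overlap in each of the 34 genes, and single arrays carry the widest points, such as control replicate 1 for Polb and Msh6, control replicate 3 for Lig1, ErbB4-/- replicate 1 for Neil1 and ErbB4-/- replicate 3 for Ercc5 and Polk.

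In several members a single array lay far from the others. Control replicate 1 was the lowest array, without a tie, in 10 of the 34 genes and the highest in 5. It lay over 0.2 from the mean of the gene in 5 genes, ErbB4-/- replicates 1 to 3 did so in 1, 0 and 3 genes and control replicates 2 and 3 in 3 and 1. The mean over the 34 genes was 6.31, 6.33 and 6.32 in control and 6.35, 6.36 and 6.34 in ErbB4-/- liver, without overlap and with a difference of 0.03. Means over 75 other repair genes, described below, did overlap, at 6.07 to 6.09 in control and 6.08 to 6.12 in ErbB4-/- liver. So did the means over all genes, at 5.6412 to 5.6484 and 5.6463 to 5.6495. Of the 34 genes, 23 had a difference above 0, 9 below and 2 equal, which is a share to be read against 54.6% above 0 among all genes. This number was 26 with repeated quantile normalization and 22 with arrays centred on their medians, and 20 to 22 on leaving out 1 array. Without control replicate 1 and ErbB4-/- replicate 3 together it was 20, and differences of the members then lay between -0.12 and 0.20.

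Repeated values limit what the smallest differences show. In 16 of the 34 genes (47.1%) at least 3 of the 6 arrays hold the identical value, to all 6 deposited decimals, and this was so for 30.9% of all genes and for 48.0% of 75 other repair genes. Ercc1 and Pms2 are among 122 genes with a single value on all arrays, 0.55% of the 22180. For such genes the standard error of 0.042 comes from the prior that limma shares across genes, not from the arrays. An identical summarised value does not show that the amounts of RNA were identical, and no values of single probes were used here. Over the 18 members without such a repeat the largest reach of an interval was again 1.46-fold, and over the 16 with one it was 1.37-fold. In a fit restricted to the 9428 genes whose 6 values all differ, which was added after the data were seen, 9 members remained, 0 of them called and 0 with an unadjusted p under 0.05.

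**Figure D2:**
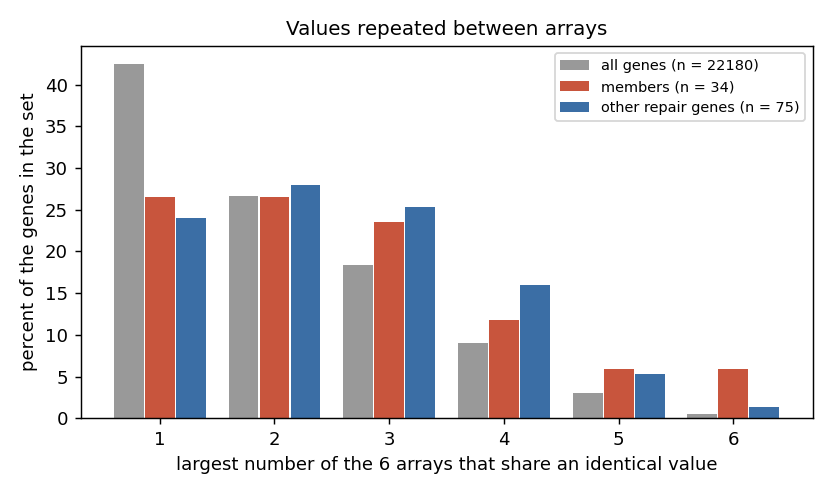
Percent of genes (vertical axis) by the largest number of arrays that share an identical log2 value (horizontal axis, 1 meaning that all 6 differ), for all 22180 genes, the 34 members and 75 other repair genes. All 6 values differ in 42.5% of all genes but in 26.5% of the members and 24.0% of the other repair genes.

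Other genes of the same routes were listed beside the members, 87 in number, of which 75 have a value here. None was called (limma, 0 of 75), and 2 had an unadjusted p under 0.05 (2.67%, against 5.72% of all genes), both with higher values in ErbB4-/- liver. Rad51d, a gene of homologous recombination, measured 6.39, 6.30 and 6.69 in control and 6.999, 6.89 and 6.86 in ErbB4-/- liver. Its groups did not overlap, and the difference of 0.45 had a standard error of 0.11 (limma, adjusted p = 0.760). The difference of Rad51d stayed between 0.33 and 0.57 over the alternatives, the lowest of these with weeks as a covariate. Gtf2h4, a TFIIH subunit, differed by 0.22 with a standard error of 0.08, and by -0.01 with weeks as a covariate. Xrcc4, the partner of the end-joining ligase, measured 5.99, 5.83 and 6.02 in control and 6.16, 6.39 and 6.06 in ErbB4-/- liver, without overlap and with a difference of 0.26. Rad51d and Xrcc4 were the 2 of 75 genes without overlap, which is 2.67% against 8.33% of all genes.

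By list, the other base excision genes had a median difference of -0.02 over 13 genes, with Neil3 at -0.16 and Mbd4 at 0.08. Other nucleotide excision genes had a median of 0.03 over 14, with Rad23b, the partner of Xpc, at 0.14. Medians were 0.09 over 4 mismatch repair genes, with Pold1 at 0.13 and Mlh3 at 0.11, and 0.07 over 14 damage signalling genes, with the clamp subunit gene Rad1 at 0.23 and Atrip, the partner of Atr, at 0.14. They were -0.02 over 11 genes of homologous recombination, with the helicase gene Blm at -0.13, and 0.12 over 5 genes of end joining, with the polymerase gene Poll also at 0.12. Translesion and crosslink repair genes had a median of -0.004 over 14, with Fancl at -0.13 and Polq at -0.12. None of these was called.

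Several members, among them Brca1, Brca2, Chek1, Lig1 and Msh6, are known to be transcribed mostly in cells that replicate. The list of replication and mitosis genes had a mean between 5.04 and 5.09 on control arrays and between 4.98 and 5.04 on ErbB4-/- arrays, a median difference of -0.05 over 17 genes with 0 called in limma and 0 at an unadjusted p under 0.05. The proliferation marker Mki67 measured 5.62, 5.43 and 5.48 in control and 5.23, 5.44 and 5.33 in ErbB4-/- liver, and Top2a differed by -0.16. Targets of p53 had a median difference of -0.06 over 12 genes, 5 higher and 7 lower, with 0 called in limma. Their mean level did not overlap between the groups, at 7.03 to 7.30 on control and 6.50 to 6.96 on ErbB4-/- arrays. A few genes with large decreases weigh on this mean, whose difference was -0.37 against the median of -0.06. Differences of single genes ran from -2.13 to 0.18. Without 1 array at a time the median lay between -0.10 and -0.0009. Of the 12 genes 2 had an unadjusted p under 0.05 (16.7%, against 5.72% of all genes), in opposite directions. Trp53inp1, a p53-induced stress gene, measured 10.63, 10.21 and 11.01 in control and 8.77, 9.50 and 9.18 in ErbB4-/- liver. Its difference was -1.47 (standard error 0.27, limma adjusted p = 0.760), while Eda2r differed by 0.18. Among the rest, picked after their values were seen, Btg2 differed by -2.13 with a standard error of 0.94. It measured 11.01, 10.20 and 10.38 in control and 9.58, 9.38 and 6.23 in ErbB4-/- liver, with ErbB4-/- replicate 3 far below the others. The cell cycle inhibitor Cdkn1a differed by -1.07 with a standard error of 0.69, and its groups overlapped. The part of these genes in the values of the repair genes was not tested. Hepatocyte markers had a mean between 13.01 and 13.09 in control and between 12.96 and 13.03 in ErbB4-/- liver. Of these 10 genes 8 were lower and 2 higher, with a median of -0.03 and 0 called in limma. Hnf4a, at -0.30 with a standard error of 0.10, was the 1 gene of 10 without overlap, against 8.33% of all genes. It was also the 1 with an unadjusted p under 0.05 in limma, while Hpd differed by 0.08.

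Markers of several other liver cell types had lower values in the ErbB4-/- group. Kupffer cell and macrophage markers were lower in 13 of 13 genes, with a median of -0.73. Their mean was 8.55 to 8.85 on control arrays and 7.34 to 8.19 on ErbB4-/- arrays. Neutrophil markers were lower in 10 of 10 genes, with a median of -2.07 and means of 5.28 to 7.31 and 4.55 to 4.95. Endothelial markers were lower in 10 of 10 genes, with a median of -0.79 and means of 8.26 to 8.68 and 7.05 to 8.25, and stellate cell markers had a median of -0.28 over 10 genes with overlapping means of 7.40 to 7.57 and 6.91 to 7.52. Without ErbB4-/- replicate 3 the endothelial median was -0.39 and the stellate median -0.11, and without ErbB4-/- replicate 1 the stellate median was -0.44, values computed after the data were seen. Unadjusted p in limma was under 0.05 for 11 of 13 macrophage and 8 of 10 neutrophil markers. It was so for 6 of 10 endothelial and 1 of 10 stellate cell markers, against 5.72% of all genes. No gene of these lists was called (limma), and their part in the values of the repair genes was not tested. In bulk tissue, fewer cells of a type and less RNA per cell cannot be told apart. Cholangiocyte markers, with a median of -0.01 over 5 genes, and 6 housekeeping genes, with a median of 0.01, were near 0. T and NK cell markers had a median of -0.15 and were lower in 9 of 11 genes. Unadjusted p in limma was under 0.05 for 3 of the 11, among them Cd3g at -0.64 and Ncr1, higher, at 0.44. B and plasma cell markers had a median of -0.07 but a mean of -0.38, with 5 genes lower and 2 higher. Jchain differed by -1.53 and Ighm by -1.09, and 0 of these 7 had an unadjusted p under 0.05.

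**Figure D3:**
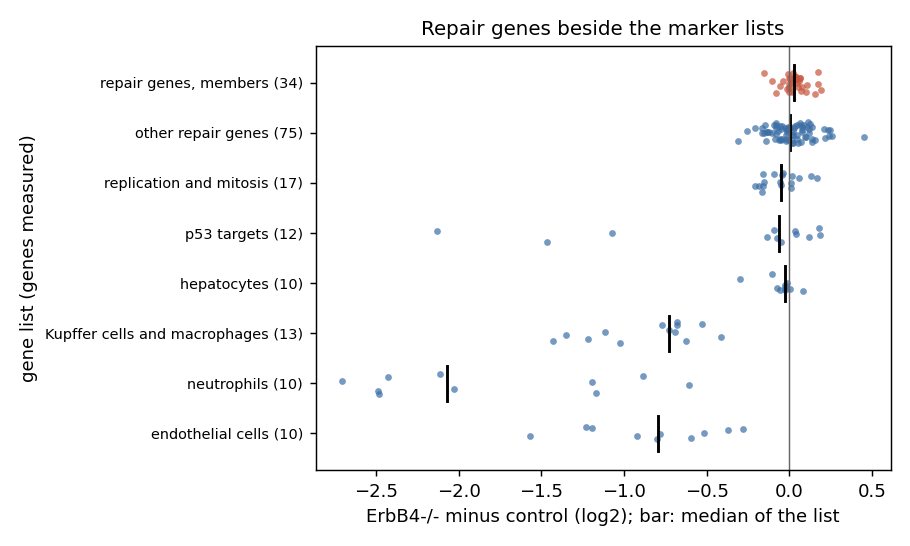
Difference between ErbB4-/- and control liver (log2, horizontal axis) of each gene in the 34 repair genes (red) and in 7 other lists (blue), with the black bar at the median of a list and the number of genes in brackets. The repair genes lie between -0.15 and 0.19, while the medians of the macrophage, neutrophil and endothelial markers are -0.73, -2.07 and -0.79.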

How the data were processed

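RNA of 6 livers was labelled with biotin after whole-transcript amplification, per the labels' protocols. The deposited table holds log2 values, normalized by the authors, for 41345 probe sets, with background correction and probe summarisation not given in the sources used here. Their range, 1.74 to 14.4, gave the log base. No background signal was used, so a low value can be background. The annotation of the platform gives 1 gene symbol to 23521 probe sets and several to 1814, and leaves 16010 unnamed here. This made 22180 genes. Symbols were compared with RefSeq genes of GRCm38.p6 by gene identifier, which updated 0.

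Differences were tested over the 22180 genes in R 4.3.3 with limma 3.58.1 (lmFit, then eBayes), two-sided, on genotype alone, Benjamini-Hochberg adjustment and a threshold of 0.05. Permuting 3 against 3 arrays gives no p under 0.1 and was left out. The design text calls the mice biological replicates. The members, gene lists and alternatives were chosen with earlier results of these data known, so lists are described by counts and medians, without a test. All members are named, with up to 2 genes of each other repair list by smallest p. Every array value is given for the 3 members with the smallest p and for other members where single arrays matter. The fit was tested on simulated data before use, with 200 of 22180 genes changed. It called 28% of changes of 0.58, 68.5% of changes of 1 and 94.5% of changes of 2, so a gene that is not called can still differ. With these, 4, 5 and 14 unchanged genes were called. Values were drawn independently with the spread of each gene, and changed genes were picked from all genes. The shares therefore do not describe the members, and arrays that stand apart were not simulated.

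The alternatives were repeated quantile normalization, centring on array medians, a filter at the median level, averaging the probe sets of a gene, testing all rows, array weights, a robust prior with a trend, weeks as a covariate, a block for the replicate number, leaving out arrays, and thresholds of 0.01 and 0.1. A pseudocount had no use on log2 values. Figures were drawn with matplotlib 3.10.9.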

Additional observations from a re-analysis of the deposited data

How the results depend on the processing

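No member was called under any of the alternatives run, and 0 to 1 members had an unadjusted p under 0.05 (Parp1 or Msh3). The single gene called among all genes was lost, leaving 0, at a threshold of 0.01, when all rows of the table were tested, with the replicate block, with weeks as a covariate, without control replicate 1 and ErbB4-/- replicate 3 together, and on leaving out any 1 array (0 to 0). Same-numbered arrays do not deviate together (correlations of -0.102, 0.0345 and -0.0499 across genes), so the numbers are not taken as pairs; with the replicate block 0 genes and 0 members were called. The median difference of the members was 0.027. It was 0.041 with repeated quantile normalization, 0.023 with centring, 0.036 for the 27 members at or above the median level, 0.034 with the mean of the probe sets, 0.042 with weeks, 0.010 without both arrays that stood apart, and 0.036 for the 9 members whose values all differ, an alternative chosen after seeing the data. Leaving out 1 array gave 0.020 to 0.041. Signs of members are not stable where differences are near 0. They turned in 4 to 6 members on leaving out 1 array, in 7 without both arrays and in 13 with weeks, the last up to a member with a difference of 0.18; the cause was not tested. Precision is limited by the number of arrays, and the intervals of Lig1 and Neil1 reach nearly 1.5-fold.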
